A study of Mus musculus with 6 samples.

Results

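The genes of potassium channels were followed in prefrontal cortex, in wild-type mice of the C57BL/6 strain housed singly or in groups for 6 days. Members were chosen by symbol alone, as every gene whose deposited symbol begins with Kcn and a lower-case letter, which gave 95 of 23284 gene rows. The libraries were 3 titled as isolated (single-housed) and 3 group-housed, all from mice aged 8 to 10 weeks, with no agent or allele named in the labels. Nothing in the labels ties a library to one animal, so the p-values below reflect variation among samples that could be technical in part. The series title names interferon-g and social behaviour, and the housing comparison asks what living alone changes in this area of cortex.

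Potassium channels let potassium leave the cell along its gradient, which holds the resting potential, ends the action potential and sets how fast a neuron can fire. Voltage-gated channels open on depolarisation, inward rectifiers pass current best near rest, tandem-pore (K2P) channels carry background leak, and calcium- or sodium-activated channels open when those ions rise inside the cell. Auxiliary subunits form no pore of their own and alter the surface number or gating of the channels they join. Modifier subunits such as Kcnf1 and Kcnv1 make no working channel alone and alter the channels they join.

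The 95 rows comprised 40 voltage-gated, 15 inward rectifier, 14 tandem-pore and 8 calcium- or sodium-activated genes, 17 auxiliary genes and 1 noncoding RNA, Kcnq1ot1. Classes were set by gene family, so the descriptions above need not hold for every member. Kcnu1 (Slo3 family) was counted as calcium- or sodium-activated, and Kcnrg, a regulator gene, as auxiliary. A member was tested when it had 10 or more counts in at least 3 libraries, and 80 of the 95 were. Just inside that minimum were Kcnk5, with 13 to 23 counts per library, and Kcnj5, with 4 to 23. Just outside it was Kcnn4, the intermediate-conductance calcium-activated channel gene, with 4 to 10. The other 14 members left out had 11 or fewer counts in any library: Kcna7, Kcna10, Kcnh8, Kcnv2, Kcnj1, Kcnj15, Kcnk7, Kcnk15, Kcnk16, Kcnk18, Kcne1, Kcne2, Kcne3 and Kcnmb3. Kcnj1, best known from the kidney, had 0 counts throughout. A count of 0 allows up to 3 counts, or 0.0897 to 0.116 CPM of a library's total (counting error only; CPM is explained with the libraries), so Kcnj1 was not detectable at this depth.

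Promoters are shown for the inward rectifier gene with the highest level and the one with 0 counts, and for a pair of Kv1 genes that return in the housing comparison. Each sequence is from RefSeq (GRCm38.p6, a later build than that of the counts), runs 5′ to 3′ from 250 bases before to 50 bases after the gene's start, and has the dinucleotide CG in capitals. The windows are chr15:79505192-79505491 on the minus strand for Kcnj4, chr9:32393735-32394034 on the plus strand for Kcnj1, chr2:107290339-107290638 on the plus strand for Kcna4 and chr6:126535506-126535805 on the minus strand for Kcna5.
Kcnj4: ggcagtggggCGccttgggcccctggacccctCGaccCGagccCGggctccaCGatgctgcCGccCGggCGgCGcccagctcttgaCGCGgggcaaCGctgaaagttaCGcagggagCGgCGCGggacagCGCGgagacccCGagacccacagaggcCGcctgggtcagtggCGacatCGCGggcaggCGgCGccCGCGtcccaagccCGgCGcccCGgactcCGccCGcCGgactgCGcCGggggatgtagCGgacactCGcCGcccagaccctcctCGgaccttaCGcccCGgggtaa
Kcnj1: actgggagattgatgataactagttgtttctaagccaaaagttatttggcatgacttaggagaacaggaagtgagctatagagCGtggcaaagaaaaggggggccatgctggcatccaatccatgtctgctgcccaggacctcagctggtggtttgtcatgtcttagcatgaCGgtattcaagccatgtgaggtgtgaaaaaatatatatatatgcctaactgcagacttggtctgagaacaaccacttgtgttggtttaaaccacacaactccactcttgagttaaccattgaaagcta
Kcna4: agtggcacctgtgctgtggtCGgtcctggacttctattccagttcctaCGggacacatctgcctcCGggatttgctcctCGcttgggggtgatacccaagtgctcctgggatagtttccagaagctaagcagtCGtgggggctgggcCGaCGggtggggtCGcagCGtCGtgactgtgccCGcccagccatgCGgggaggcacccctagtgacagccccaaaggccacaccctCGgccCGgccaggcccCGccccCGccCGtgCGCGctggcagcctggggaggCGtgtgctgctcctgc
Kcna5: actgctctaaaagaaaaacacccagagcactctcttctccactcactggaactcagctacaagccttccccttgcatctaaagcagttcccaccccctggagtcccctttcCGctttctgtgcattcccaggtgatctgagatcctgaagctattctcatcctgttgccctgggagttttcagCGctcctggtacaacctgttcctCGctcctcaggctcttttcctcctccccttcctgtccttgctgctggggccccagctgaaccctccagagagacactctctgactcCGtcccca
The Kcnj4 window held 41 CG dinucleotides and the Kcnj1 window 2, while Kcna4 had 20 and Kcna5 had 4. CG reads the same on both strands. Windows were found for 70 of the 95 members, and the one with the most CG was taken where a gene had several. The median number of CG was 19.5 in the 26 protein-coding members with a mean level of 10 RPKM or more, 14 in the 30 with a lower level that were tested and 6 in the 13 left out of the tests, against 8 over all 27025 genes with a window. RPKM is explained with the levels. A window with 10 or more CG was present for 19 of 26, 19 of 30 and 4 of 13 of these members, and for 45.8% of all genes. Among the 56 tested members the level and the number of CG had a Spearman's rho of 0.19, across genes, which are not independent replicates.

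Libraries held 25858355 (group-housed replicate 1) to 33428512 counts (single-housed replicate 3). Levels of one gene are given as CPM, read counts brought to a common library size by TMM scaling. All 12 cortical excitatory neuron markers on the list used were detected, at a summed 5932 to 6933 CPM. Striatal markers (20 of 22 measured) summed to 3312, 1671 and 665 CPM in the 3 single-housed replicates and 1621, 693 and 793 CPM in the 3 group-housed ones, here and below in the order of replicates 1, 2 and 3. Myelin and oligodendrocyte markers (12 of 12) summed to 4643, 4457 and 2209 CPM and 5985, 2174 and 3457 CPM. In bulk tissue, fewer cells of a type and less RNA per cell cannot be told apart.

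Levels between genes are given as RPKM, the CPM divided by the kilobases of exon that the deposited table lists. Of the 80 tested members 38 were at 10 RPKM or more and 11 under 1 RPKM (means of 6 libraries). The median tested member was at 9.24 RPKM, against 7.47 RPKM over all 15264 genes tested. The 10 highest members held 46.7% of the summed level. Voltage-gated genes took 40.6% ± 0.761 of the summed level in single-housed libraries and 40.6% ± 2.33 in group-housed ones (SD, n = 3 each, as for the other classes). Auxiliary subunits took 28.2% ± 0.847 and 28.3% ± 2.26, inward rectifiers 18.9% ± 0.213 and 18.5% ± 0.157, tandem-pore channels 7.39% ± 0.178 and 7.699% ± 0.0993, and calcium- or sodium-activated channels 4.94% ± 0.1196 and 4.91% ± 0.468. The groups did not overlap for inward rectifiers, higher in each single-housed library, or for tandem-pore channels, lower in each, but both gaps were under 1% of the summed level. No test was made of the shares, and 3 libraries against 3 cannot give an exact two-sided permutation p below 0.1.

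**Figure D1:**
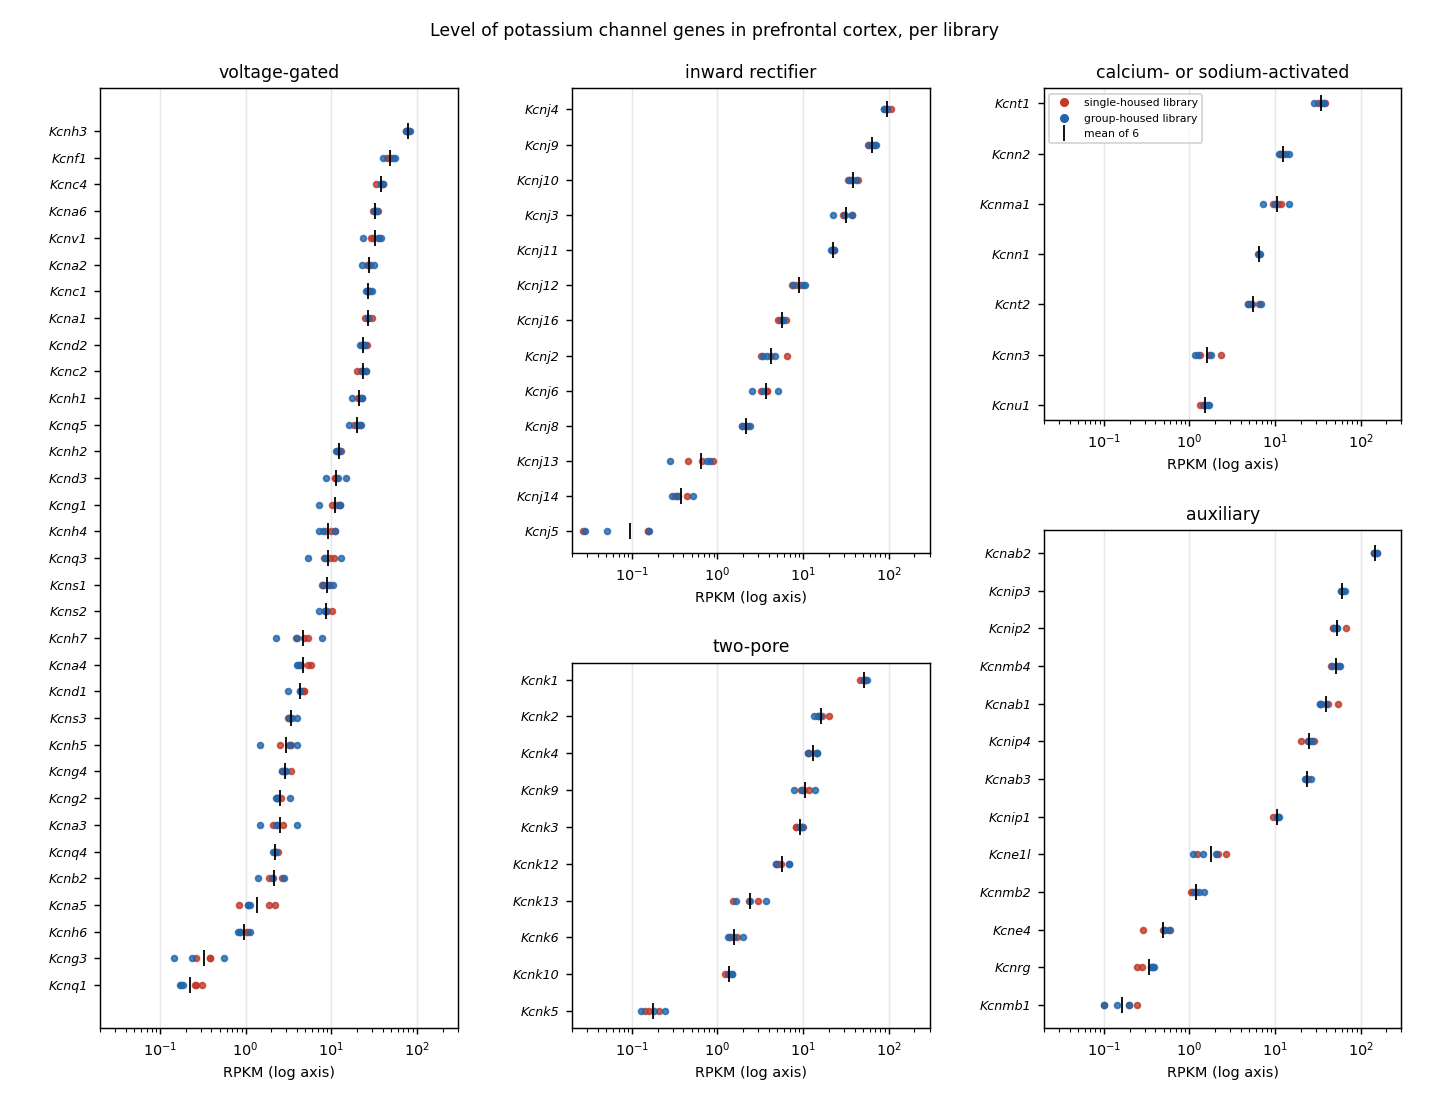
Level of tested potassium channel genes in RPKM (x axes, logarithmic), 1 panel per class, with 1 point per library (red single-housed, blue group-housed) and a black tick at the mean of 6; Kcnq1ot1 and some voltage-gated genes are not drawn. Kcnab2, at 148 RPKM, stands above all others, and red and blue points overlap for all but 4 of the genes drawn.

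The highest member was the auxiliary gene Kcnab2 (chromosome 4, 151764849 to 151851658, mm9), which encodes a cytoplasmic beta subunit of Kv1 channels. Its level was 143 to 154 RPKM over the 6 libraries, apart from the next member, Kcnj4, at 87.9 to 108 RPKM. Kcnj4 encodes Kir2.3, a strong inward rectifier, and lay apart from Kcnh3 at 73.9 to 83.1 RPKM. Kcnh3 in turn lay apart from Kcnj9 at 57.7 to 71.6 RPKM. From Kcnj9 down, each of the next 12 members overlapped the one above it over the libraries. Kcnip3, with a mean of 61.4 RPKM and a range of 58.7 to 66.6, overlapped Kcnip2 and lay above every library of Kcnmb4, Kcnk1 and Kcnf1. Kcnip2, Kcnmb4, Kcnk1 and Kcnf1, with means of 53.03, 51.8, 51.6 and 48.4 RPKM, all overlapped each other. Kcnip3 and Kcnip2 encode KChIP proteins, calcium-binding partners of Kv4 channels, and Kcnmb4 encodes the neuronal beta subunit of the BK channel. For Kcnmb4, 28.5% of the exon bases overlap exons of another gene on the opposite strand, so its counts are uncertain.

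Among voltage-gated genes the leading members were Kcnh3 at 78.4 RPKM, Kcnf1 at 48.4 and Kcnc4 at 38.02 (means of 6). Kcnh3 (chromosome 15, 99055407 to 99073248, mm9) encodes Kv12.2, a channel of the ether-a-go-go family of the forebrain. The Kv1 genes of axons, Kcna1 and Kcna2, were at 27.2 and 27.5 RPKM. The Kv3 genes of fast-spiking cells, Kcnc1 and Kcnc2, were at 27.3 and 23.3 RPKM, and Kcnd2, an A-type channel gene of dendrites, was at 23.8. Libraries overlapped within each of the pairs Kcna1 and Kcna2 and Kcnc1 and Kcnc2, while Kcnc4, also a Kv3 gene, lay at 33.4 to 40.3 RPKM, above every library of Kcnc1 and Kcnc2. The M-current gene Kcnq3 stood at 9.27 RPKM.

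Inward rectifiers were led by Kcnj4, Kcnj9 and Kcnj10. The G protein-gated subunit genes lay apart from each other, with Kcnj9 at 57.7 to 71.6 RPKM, Kcnj3 at 22.4 to 37.6 and Kcnj6 at 2.51 to 5.07. Kcnj10 encodes Kir4.1, through which astrocytes take up potassium, and was at 33.8 to 44.3 RPKM. Kcnj8 encodes the pore of the ATP-sensitive channel of vessel mural cells and was at 1.95 to 2.42 RPKM. Of the tandem-pore genes Kcnk1 was at 51.6, Kcnk2 at 16.01 and Kcnk4 at 12.9 RPKM (means of 6). Kcnk2 and Kcnk4 encode channels opened by membrane stretch. The sodium-activated channel gene Kcnt1 led its class at 34.3 RPKM, above Kcnn2, of SK channels, at 12.5 and Kcnma1, the pore of the BK channel, at 10.7. For Kcnn2, 13.9% of exon bases overlap a gene on the other strand.

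No potassium channel gene differed between housing groups past the threshold. By edgeR's quasi-likelihood test with Benjamini-Hochberg adjustment over all 15264 genes tested, 0 of 80 members were called (lowest adjusted p = 0.9999), against 0% of all genes. At an unadjusted p under 0.05 there were 2 members, both higher in single-housed mice, where 1.56% of all genes had such a p (0.839% higher and 0.721% lower). DESeq2 called 0 members, against 8 of 15264 genes, and gave 2 members (Kcna4 and Kcna5) at an unadjusted p under 0.05, against 0.963% of all genes. limma-voom called 0 members and 0 genes and gave 2 members (Kcna4 and Kcnq1) at an unadjusted p under 0.05, against 1.45%. Groups did not overlap for 4 members, against 4.87% of all genes; 3 were higher in single-housed mice and 1 lower, against 2.48% and 2.38%. These shares of the members are near the background. Each difference below is log2 single-housed over group-housed. Of the 80 members 39 lay above 0 and 41 below, with a median of 0.00, which is also the median of all genes to 2 decimals.

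The number of members at an unadjusted p under 0.05 depended on single libraries, and the share of all genes moved with it. It was 7 without group-housed replicate 1 (3.41% of all genes), 8 leaving out replicate 2 of that group (5.28%) and 7 when single-housed replicate 3 was left out (3.01%). When single-housed replicate 1 was left out there were 2 (0.989% of all genes), Kcnq1 and Kcnk3, and Kcna4 was no longer among them. The number was 0 when either single-housed replicate 2 (0.812% of all genes) or group-housed replicate 3 (1.14%) was left out. None of these 6 edgeR fits called a member, and those without group-housed replicate 1 or 2 each called 1 gene of 15264. With the striatal marker mean as a covariate the number was 4, against 2.61% of all genes, and 0 genes were called.

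The data bounded the difference for most members. The 95% interval lay within 1.5-fold in either direction for 57 of 80 members, against 79.3% of all genes, and within 2-fold for 74, against 93.5%. By class the first number was 28 of 36 voltage-gated, 9 of 13 inward rectifier, 7 of 10 tandem-pore, 6 of 7 calcium- or sodium-activated and 7 of 13 auxiliary genes. Kcnab2 differed by −0.01 (95% interval −0.17 to 0.15), Kcnh3 by −0.02 (−0.19 to 0.15) and Kcnc1 by −0.02 (−0.20 to 0.16), so a change of 1.5-fold lay outside the interval of each. Kcnh7 had a wide interval of −0.81 to 0.84 and Kcnj5 one of −1.06 to 2.15, which leave a 1.5-fold difference in either direction undetectable at this replication.

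**Figure D2:**
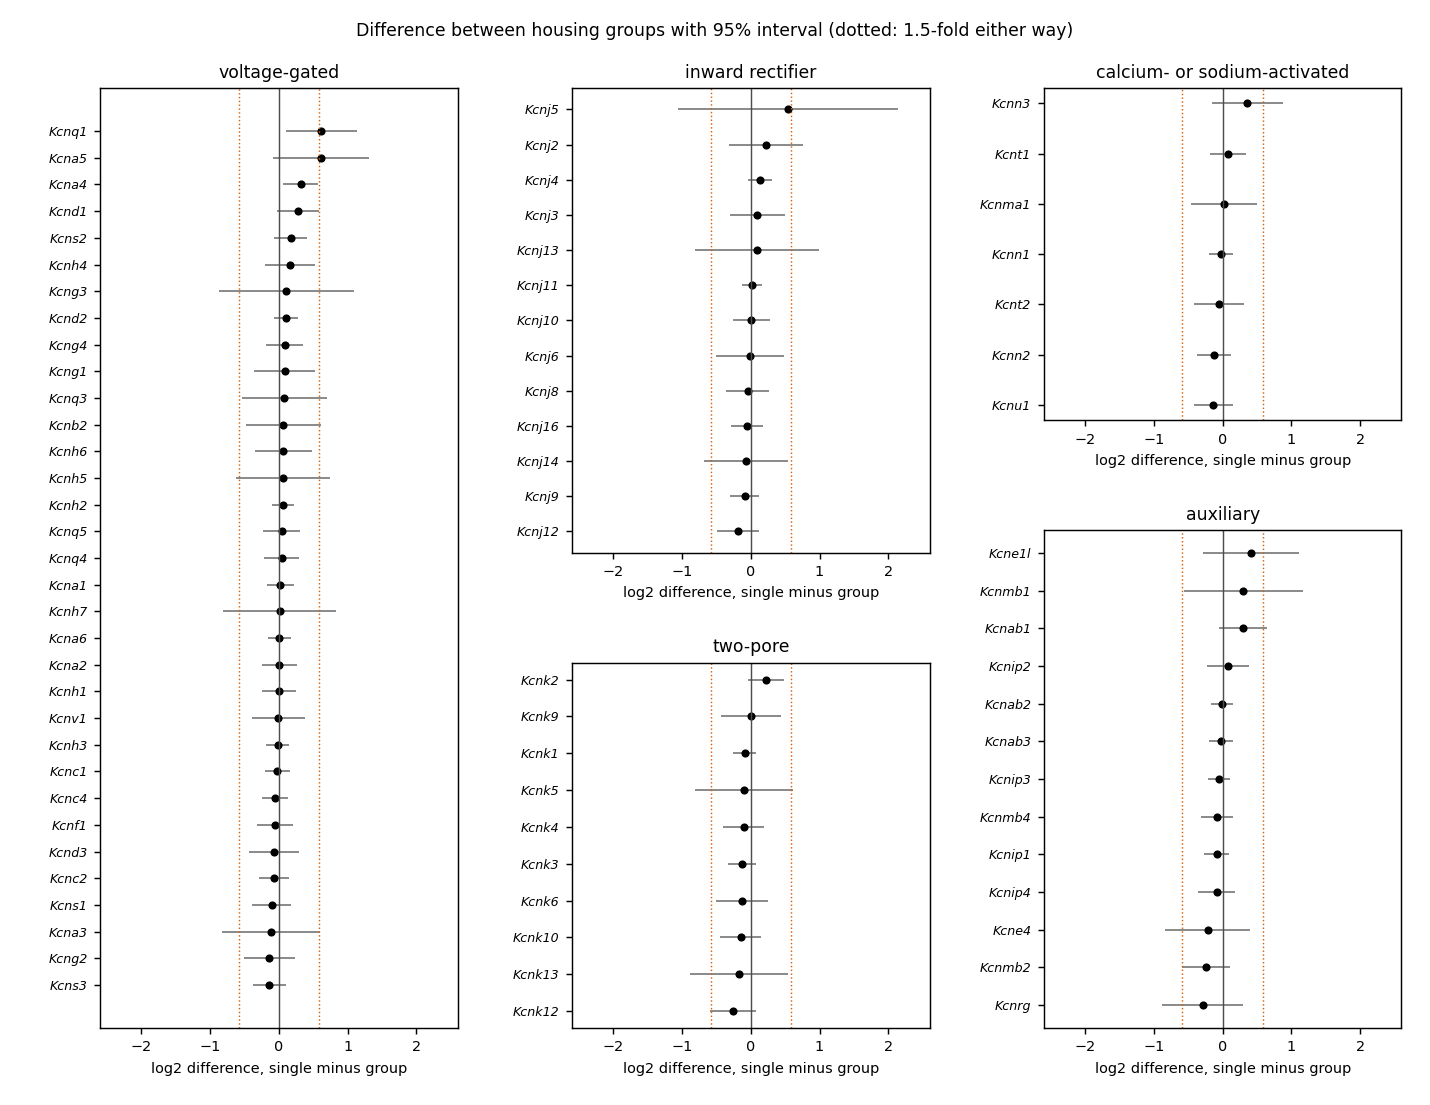
Log2 difference of tested members, single-housed over group-housed (x axes; point, estimate; line, 95% interval from edgeR's quasi-likelihood fit), 1 panel per class, with dotted lines at 1.5-fold either way; Kcnq1ot1 and some voltage-gated genes are not drawn. Intervals cross 0 for all members drawn except Kcna4 and Kcnq1, and neither passes adjustment.

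The member with the smallest p was Kcna4 (chromosome 2, 107130746 to 107138661, mm9), which encodes Kv1.4, an inactivating Kv1 channel of axons. Its level was 27.9, 25.7 and 21.4 CPM in single-housed mice and 21.2, 19.4 and 19.6 CPM in group-housed mice. Every single-housed library lay above every group-housed one, by little for single-housed replicate 3. The difference was 0.32 (SE 0.112, 95% interval 0.06 to 0.57, edgeR unadjusted p = 0.01997, adjusted p = 0.9999). Within each housing group the libraries had the same order in Kcna4 as in summed striatal markers. The difference was 0.22 with the striatal covariate (SE 0.0873, edgeR unadjusted p = 0.0309, not called after adjustment). It was 0.14 once the 3 libraries highest in striatal marker mean were left out (single-housed replicates 1 and 2 and group-housed replicate 1). That fit compares 1 library with 2. The part of striatal tissue in the Kcna4 difference was not tested. The promoter of Kcna4 is the CG-rich one of the Kv1 pair shown.

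Kcnq1, the Kv7 channel gene best known from heart and epithelia, was near the minimum at 0.794, 0.927 and 0.7798 CPM in single-housed and 0.526, 0.557 and 0.5398 CPM in group-housed mice. All single-housed libraries were higher, from 26 to 31 counts against 14 to 17. The difference was 0.62 (SE 0.228, interval 0.10 to 1.14, edgeR unadjusted p = 0.0244, adjusted p = 0.9999), and DESeq2 gave an unadjusted p of 0.141. The long noncoding RNA Kcnq1ot1 lies on the opposite strand and covers 3.99% of the exon bases of Kcnq1. The strand setting of the counting is unknown here, so reads of both cannot be told apart there. Kcnq1ot1 was at 9.01, 8.46 and 7.89 CPM against 8.53, 6.45 and 5.49 CPM, and its groups overlapped (0.31, SE 0.162).

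Next on the higher side were Kcnd1, Kcna5 and Kcnk2. With all libraries none had an unadjusted p under 0.05 by edgeR or limma-voom. Without single-housed replicate 3, edgeR gave unadjusted p-values of 0.00029 for Kcna5 and 0.0214 for Kcnk2. Without group-housed replicate 2 it gave 0.0467 for Kcnd1. None of these was called after adjustment. DESeq2 gave Kcna5 an unadjusted p of 0.0476, which was not called after adjustment. Kcnd1, a Kv4 A-type channel gene, was at 9.37, 9.54 and 8.94 CPM in single-housed and 6.2004, 8.41 and 8.38 CPM in group-housed mice. Its groups did not overlap, and the difference was 0.27 (SE 0.134) with all libraries and 0.14 without group-housed replicate 1, the lowest. Kcna5, the Kv1.5 gene, was at 6.72, 5.62 and 2.52 CPM against 3.34, 3.18 and 3.21 CPM, so single-housed replicates 1 and 2 were high and replicate 3 was the lowest of all 6. Its difference was 0.61 (SE 0.308), 0.93 without single-housed replicate 3 and 0.33 leaving out replicate 1. It was −0.34 when the 3 libraries highest in striatal marker mean were left out, which leaves 1 library against 2. Kcnk2, the TREK-1 gene, was at 79.8, 65.8 and 59.2 CPM against 62.2, 53.5 and 59.7 CPM (0.22, SE 0.114), and the difference was 0.09 without single-housed replicate 1.

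On the lower side, the members of smallest p were Kcnk12, Kcnmb2, Kcnk3, Kcnj12 and Kcns3, with unadjusted p-values of 0.115 to 0.234 by edgeR. Kcnk12, a tandem-pore gene of the THIK type, was at 10.9, 9.33 and 9.84 CPM in single-housed and 9.36, 13.2 and 13.4 CPM in group-housed mice. Group-housed replicate 1 fell among the single-housed libraries, and without it the difference moved from −0.26 (SE 0.149) to −0.41. Kcnj12, an inward rectifier gene of the Kir2 type, was at 20.5, 18.3 and 22.5 CPM against 18.8, 26.1 and 24.8 CPM (−0.19, SE 0.137). Its value was −0.32 without group-housed replicate 1. The BK beta subunit gene Kcnmb2 was at −0.24 (SE 0.154), Kcnk3, the TASK-1 leak channel gene, at −0.12 (SE 0.0905) and the modifier gene Kcns3 at −0.14 (SE 0.107). Kcnk10, the TREK-2 gene, named after its values were seen, was the 1 lower member whose groups did not overlap, at 3.08 to 3.42 against 3.43 to 3.795 CPM (−0.15, SE 0.133). The tandem-pore genes had 9 of 10 members below 0, with a median of −0.11. The median was 0.03 for voltage-gated, 0.01 for inward rectifier, −0.02 for calcium- or sodium-activated and −0.05 for auxiliary genes, and classes were not tested against each other.

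For well-known channels of cortical excitability the intervals spanned 0 in the fit with all libraries and no covariate. The Kir4.1 gene Kcnj10 was at 239, 198 and 183 CPM in single-housed and 227, 187 and 202 CPM in group-housed mice (0.01, interval −0.25 to 0.27). Its groups overlapped, as did those of all genes that follow up to Kcnn2. Kcnd2 differed by 0.10 (interval −0.08 to 0.27), Kcna1 by 0.02 (−0.18 to 0.22), Kcna2 by 0.01 (−0.25 to 0.26) and Kcnc2 by −0.07 (−0.29 to 0.14). Among inward rectifiers Kcnj4 differed by 0.14 (−0.04 to 0.32), Kcnj9 by −0.09 (−0.31 to 0.13), Kcnj3 by 0.10 (−0.30 to 0.49) and Kcnj8 by −0.05 (−0.36 to 0.26). The leak channel gene Kcnk1 differed by −0.09 (−0.26 to 0.08), Kcnt1 by 0.08 (−0.19 to 0.34) and Kcnn2 by −0.12 (−0.37 to 0.12). By edgeR, Kcnj3 had an unadjusted p under 0.05 with the striatal covariate, and Kcnn2 without group-housed replicate 1. Neither was called after adjustment.

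Proteins that join or anchor these channels, and the related HCN cation channels, formed a list of 23 genes, of which 22 were tested. By edgeR 0 were called in either direction and 0 had an unadjusted p under 0.05, beside 1.56% of all genes, while 13 lay above 0 and 9 below, with a median difference of 0.03. The smallest p-values were those of Lrrc38, a BK gamma subunit gene (−0.17, SE 0.145), Hcn4, a pacemaker channel gene (0.35, SE 0.326), and Adam23, a receptor of the Lgi1 protein (0.08, SE 0.0876). Hcn4 was at 4.702, 3.71 and 3.81 CPM in single-housed and 1.47, 4.45 and 3.59 CPM in group-housed mice, with group-housed replicate 1 far below the rest.

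Libraries of one housing group could lie far apart. Among the 73 members with a mean of 1 CPM or more, the highest library was over 2-fold the lowest for 13, against 4.8% of the 13785 genes at that level, and the median ratio was 1.38 against 1.26. Of the 13, 7 were voltage-gated. Group-housed replicate 1, the library with the fewest counts, was the lowest of the 6 libraries for 24 of 36 voltage-gated members. It was the lowest for 34 of all 80, against 26.5% of all genes. Group-housed replicate 2 was the highest for 14 of the 36 and 22 of all 80, against 20% of all genes. Single-housed replicate 1 was the highest for 24 of 80, against 16.1%. Genes of the partner list had the same extremes, with group-housed replicate 1 the lowest for 14 and group-housed replicate 2 the highest for 10 of 22. For the 13 auxiliary genes group-housed replicate 1 was the lowest for 0 and group-housed replicate 2 the highest for 0.

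Kcnh7, which encodes Kv11.3 of the ERG family, was at 18.4, 14.8 and 20.4 CPM in single-housed and 8.53, 29.4 and 15.1 CPM in group-housed mice. The lowest and the highest library were thus both group-housed, 3.44-fold apart, with the single-housed libraries between them. Kcnh5, of the ether-a-go-go family, had the same extremes at 13.2, 10.3 and 13.7 against 5.97, 16.2 and 13.3 CPM. The M-current gene Kcnq3 was at 30.7, 23.6 and 27.9 CPM against 15.4, 37.9 and 24.3 CPM. Kcna3, the Kv1.3 gene, ran from 2.89 CPM in group-housed replicate 1 to 7.96 CPM in group-housed replicate 2, with 4.16 to 5.399 CPM in single-housed mice. The modifier gene Kcng3 was at 0.489 and 1.899 CPM in these group-housed libraries, from 13 and 58 counts. Kcnma1, at 57.2 and 113 CPM, and Kcnj6, at 17.4 and 35.3 CPM, had the same extremes.

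**Figure D3:**
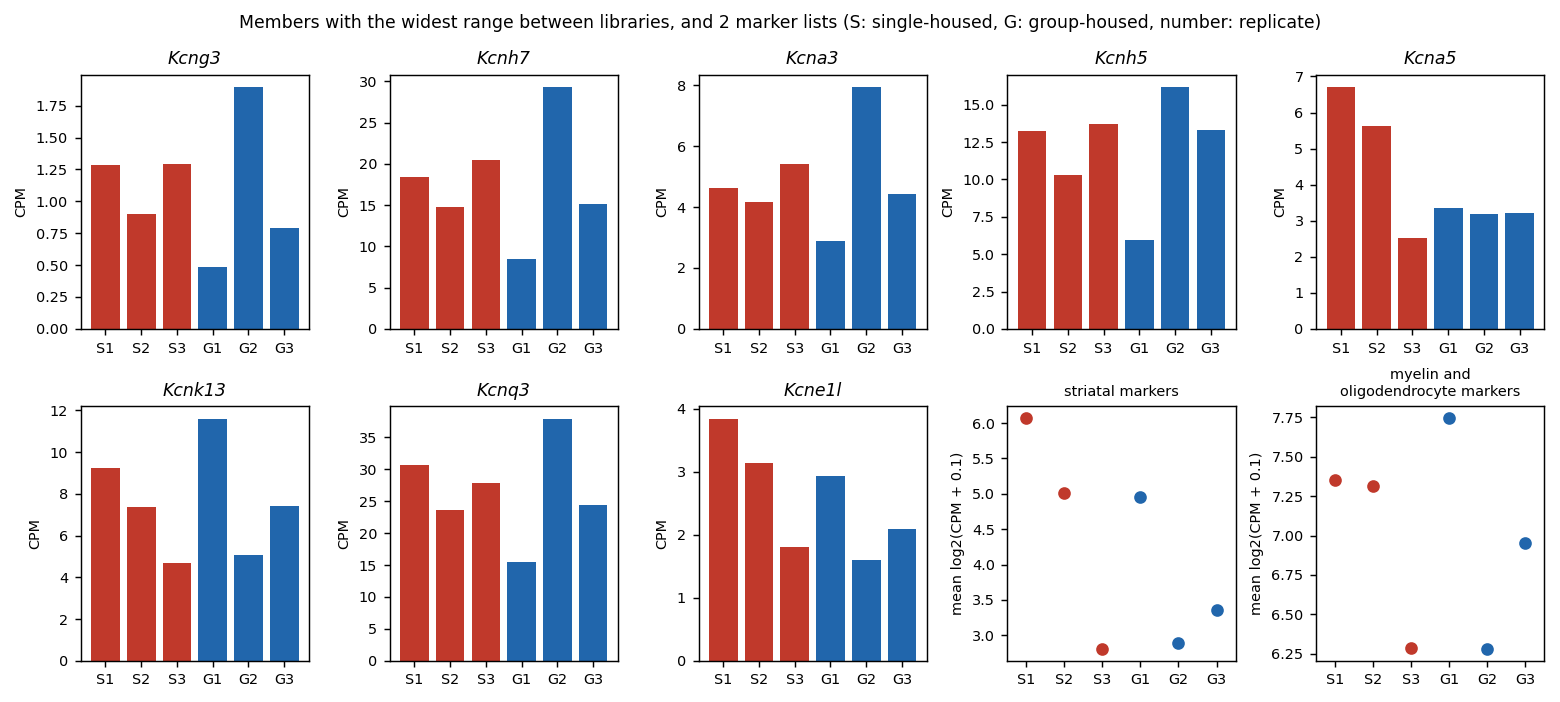
CPM (y axes, from 0) of the 8 members with the largest ratio of highest to lowest library among those with a mean of 1 CPM or more, per library (S single-housed, G group-housed, number the replicate; red and blue), and the mean log2(CPM + 0.1) of striatal and of myelin markers in the last panels. Kcng3, Kcnh7, Kcna3, Kcnh5 and Kcnq3 are lowest in G1 and highest in G2, while Kcna5, Kcnk13 and Kcne1l have other orders.

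Exon length moved with the contrast of these libraries over all genes. The log2 ratio of group-housed replicate 2 to replicate 1 (with 0.1 CPM added) had a median of −0.25 in the sixth of genes with the shortest exon total and 0.22 in that with the longest. Its Spearman's rho with exon bases was 0.46 over 13778 genes and 0.13 over 73 members, in both cases across genes that are not independent replicates. In 35 voltage-gated members the rho with exon bases was 0.01. Their median ratio was 0.31, with 11 above 0.5, against 6.25% of all genes. Kcna3, with 1968 exon bases, had a ratio of 1.43 where the median of genes in its sixth was −0.11. Between group-housed replicates 1 and 2 the summed myelin markers were 5985 and 2174 CPM, the striatal markers 1621 and 693 CPM and the microglia markers 635 and 502 CPM. The part of length, library depth and tissue makeup in the spread of these genes was not tested.

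**Figure D4:**
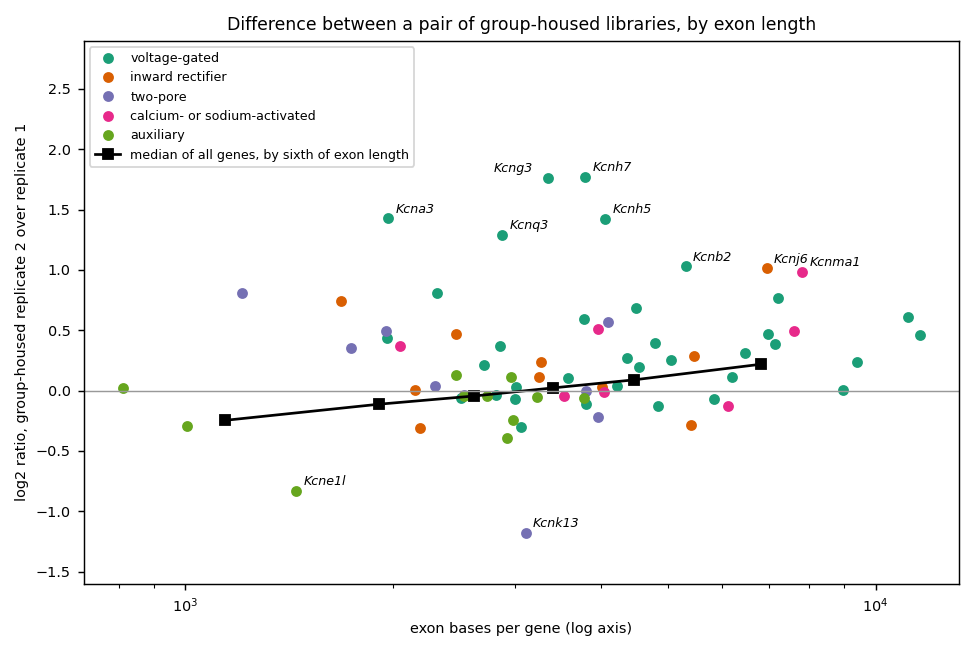
Log2 ratio of group-housed replicate 2 over replicate 1 for 72 potassium channel genes (y axis) against the exon bases of the gene (x axis, logarithmic), coloured by class; the black line joins the medians of all genes in sixths of exon length. Kcnh7, Kcng3, Kcna3, Kcnh5 and Kcnq3 lie far above the line, from 1.29 to 1.77, and Kcnk13 far below it at −1.18.

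Kcnk13 had the opposite order. It encodes THIK-1, a leak channel of microglia, and was at 9.22, 7.35 and 4.71 CPM in single-housed and 11.6, 5.07 and 7.399 CPM in group-housed mice. Its extremes were group-housed replicate 1 and single-housed replicate 3. The summed microglia markers (10 of 10) were 539.6, 522 and 527 CPM and 635, 502 and 549 CPM, highest in group-housed replicate 1 too. So were the summed myelin and oligodendrocyte markers, at 4643, 4457 and 2209 CPM and 5985, 2174 and 3457 CPM. These and Kcnk13 were lowest in single-housed replicate 3 and group-housed replicate 2, while the microglia markers varied less. The part of either cell type in the level of Kcnk13 was not tested. Kcnk13 differed by −0.17 (SE 0.314) between housing groups, and by −0.50 with the striatal covariate (edgeR unadjusted p = 0.00902, not called after adjustment). The auxiliary gene Kcne1l was at 3.85, 3.14 and 1.7995 CPM against 2.93, 1.604 and 2.096 CPM. It was higher in each of the 3 libraries with the highest striatal marker mean than in the other 3, as was Kcnj5, a G protein-gated inward rectifier gene with 23, 23 and 4 counts in single-housed and 19, 7 and 4 counts in group-housed mice. That order held for 7 of 80 members, against 11% of all genes, and the reverse, with all 3 below, held for 17, against 9.67%. The part of striatal tissue in these levels was not tested.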

How the data were processed

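RNA of 6 prefrontal cortex samples was sequenced from stranded mRNA libraries, per the labels' protocols. The deposited values are raw counts per gene symbol, made with FastQC, STAR and featureCounts on mm9, per the submitters' processing notes; their versions, the annotation and the strand setting were not given. Exon bases are the deposited length column, used only for RPKM. No column of per-sample values was left unmapped.

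Samples were grouped by their housing label. Genes with 10 or more counts in at least 3 libraries (15264 of 23284) entered edgeR's quasi-likelihood test (edgeR 4.0.16, R 4.3.3, TMM, Benjamini-Hochberg, threshold 0.05), tested on simulated data. Depth was 25858355 to 33428512 counts per library. Alternatives were RLE size factors, 3 other filters, each library left out, the replicate number as a block, robust empirical Bayes, DESeq2 1.42.0, limma-voom (limma 3.58.1), and striatal markers as covariate or ground for exclusion.

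The members and lists were chosen with earlier results of these data known. Named genes were the 3 of highest RPKM per class, the 5 of smallest p per direction, the 8 of widest spread, a set fixed by name (some are not reported here), 3 partners of smallest p and the members next to the count minimum. A planned search of protein sequences is not reported here.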

Additional observations from a re-analysis of the deposited data

How the results depend on the processing

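The 16 alternative fits called 0 members, as did the fit reported. Over all genes DESeq2 called 8, the fit without the 3 libraries of highest striatal marker mean 4, those without group-housed replicate 1 or replicate 2 called 1 each, and the others 0. Leaving out 1 library at a time gave 0 to 8 members at an unadjusted p under 0.05 (2 with all libraries), against 0.812% to 5.28% of all genes. It gave 7 to 16 members whose groups did not overlap (4 with all), against 8.96% to 22.7% of all genes, and a median log2 difference of −0.076 to 0.048. A filter at a mean above 1 CPM gave 1 member at an unadjusted p under 0.05 (all genes 1.33%), and the striatal covariate 4 (2.61%). Without the 3 libraries of highest striatal marker mean there were 1 such member (1.21% of all genes) and 43 without overlap (53.5% of all genes), from 1 library against 2, where the variance of the single one is taken from the pair. Without division by length the class shares were 56.5% voltage-gated, 13.9% inward rectifier, 4.61% tandem-pore, 6.30% calcium- or sodium-activated and 18.7% auxiliary.

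Same-numbered libraries deviated together at correlations of 0.26, −0.32 and 0.16 over genes, so the numbers were not taken to pair the samples. With the replicate block, 3 members had an unadjusted p under 0.05, against 1.62% of all genes, and 0 were called.

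Of 45 named genes with a fitted difference, 18 kept their sign in every alternative. For the signs that turned, the cause was not tested. Without 1 library the ranges of genes that turned were Kcna1 −0.064 to 0.091, Kcna2 −0.11 to 0.12, Kcna3 −0.39 to 0.37, Kcnab2 −0.046 to 0.015, Kcnc1 −0.080 to 0.040, Kcnc2 −0.16 to 0.0058, Kcnc4 −0.11 to 0.020, Kcnf1 −0.19 to 0.027, Kcng3 −0.22 to 0.83, Kcnh3 −0.066 to 0.020, Kcnh5 −0.25 to 0.35, Kcnh7 −0.32 to 0.59, Kcnip2 −0.11 to 0.16, Kcnj10 −0.11 to 0.092, Kcnj3 −0.080 to 0.28, Kcnj6 −0.23 to 0.30, Kcnj8 −0.12 to 0.030, Kcnk13 −0.42 to 0.18, Kcnk5 −0.31 to 0.15, Kcnma1 −0.19 to 0.31, Kcnq3 −0.19 to 0.46, Kcnt1 −0.028 to 0.17. With the striatal covariate the values that turned were Kcna1 −0.042, Kcna3 0.14, Kcnc1 0.00095, Kcnf1 0.032, Kcnh3 0.018, Kcnip2 −0.017, Kcnj10 −0.093, Kcnj5 −0.32, Kcnj6 0.13, Kcnk4 0.0080, Kcnt1 −0.0049. Without the 3 libraries of highest striatal marker mean they were Hcn4 −0.076, Kcna1 −0.14, Kcna2 −0.098, Kcna5 −0.34, Kcnc2 0.077, Kcnc4 0.041, Kcne1l −0.039, Kcng3 −0.057, Kcnh3 0.0093, Kcnh5 −0.11, Kcnh7 −0.12, Kcnip2 −0.086, Kcnj10 −0.087, Kcnj5 −0.55, Kcnj8 0.017, Kcnk5 0.068, Kcnma1 −0.16, Kcnq3 −0.16. Kcnj6 also turned with the replicate block (0.039) and with limma-voom (0.035).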
